A study of Homo sapiens with 6 samples.

Results

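NME2 peaks that lay close to another NME2 peak after NME2 was induced in A549 cells are described here. The members were chosen by position in the list after induction: an autosomal peak was taken where the nearest other peak of the same list began or ended at most 10000 bp away, edge to edge. This gave 1460 closely spaced peaks of 10901 autosomal peaks, and chaining them joined the 1460 peaks into 684 clusters. The other 9441 autosomal peaks had no neighbour within 10000 bp and are called isolated. Since positions chose the members, their spacing and number are descriptions without a test.

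NME2 (NM23-H2) is a nucleoside diphosphate kinase known as a metastasis suppressor, and it also binds DNA and acts as a transcriptional regulator. Binding sites of 1 factor that lie next to each other are a common feature of regulatory DNA, where several molecules of the factor can occupy a promoter or enhancer together. In ChIP-seq the width of a peak depends on the DNA fragments and on how its boundaries are called, and a long enriched stretch can be called as 1 peak or as several.

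A549 is a line of human lung adenocarcinoma cells, and each condition had 2 NME2 libraries and 1 IgG library. The cells called before induction were a separate plate, not transfected and also taken at 48 h. Their endogenous NME2 was precipitated with the nm23-h2 antibody L-16. After induction the cells carried the transiently transfected plasmid pcDNA3-NME2 with a Myc tag, were taken at 48 h, and were precipitated with the anti-c-Myc antibody 9E10, so antibody and induction cannot be told apart. The IgG libraries are labelled with goat IgG after and mouse IgG before induction. The antibody used after induction, 9E10, is a mouse monoclonal, so the species of that IgG differs from its host, and the protocol text shared by all samples names the Myc antibody alone. Antibodies are given here by the labels of each sample. The 9E10 antibody was raised against a stretch of human c-Myc, and no library here separates tagged NME2 from c-Myc of the cells. For each condition the authors deposited a single peak list (hg18 positions, no scores or reads). Neither the depth of a peak nor its spread over replicate libraries can be read from these lists. All intervals below cover counting error of peaks only.

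Closely spaced peaks were 13.4% of the autosomal peaks after induction (Wilson 95% interval 12.8 to 14.0%). Uniform placement of the same number of peaks between the first and last peak of each chromosome gives 7.59% with a neighbour within 10000 bp. The observed share was thus 1.76 times the uniform value. Stretches without peaks count as free length here. With the longest such stretch of each chromosome left out of the expectation the ratio was 1.69. Most clusters were pairs: 614 of the 684 clusters (89.8%) had 2 peaks, 53 had 3, 13 had 4, 3 had 5 and 1 had 6. Uniform placement gives 390 pairs, 15.2 clusters of 3 and 0.624 clusters of at least 4, of which the list held 17. As a ratio to uniform placement the excess was thus larger in the bigger clusters, and in number of clusters it was largest for the pairs. A bigger cluster needs more short gaps, so an excess of short gaps by itself makes this ratio rise with size.

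The excess was concentrated in the shortest gaps. Of the gaps between adjacent peaks, 297 were at most 1000 bp long, against 43.0 under uniform placement, a ratio of 6.91. From 1000 to 10000 bp there were 479 gaps against 379, a ratio of 1.26. The ratio was highest between 100 and 200 bp, with 66 gaps against 4.30 expected. It was 4.05 between 500 and 1000 bp, 1.33 between 1000 and 2000 bp, 1.44 between 2000 and 5000 bp and 1.14 between 5000 and 10000 bp. Just beyond the limit of the rule, from 10000 to 20000 bp, it was 1.20. The ratio thus did not fall on passing the limit. The members just inside the limit were a pair on chromosome 10 with a gap of 9992 bp, chr10:124475152-124475368 and chr10:124485361-124485436, which were 217 and 76 bp wide. The peaks just outside it were a pair on chromosome 11 with a gap of 10007 bp, chr11:34624123-34624240 and chr11:34634248-34634276, which were 118 and 29 bp wide.

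**Figure D1:**
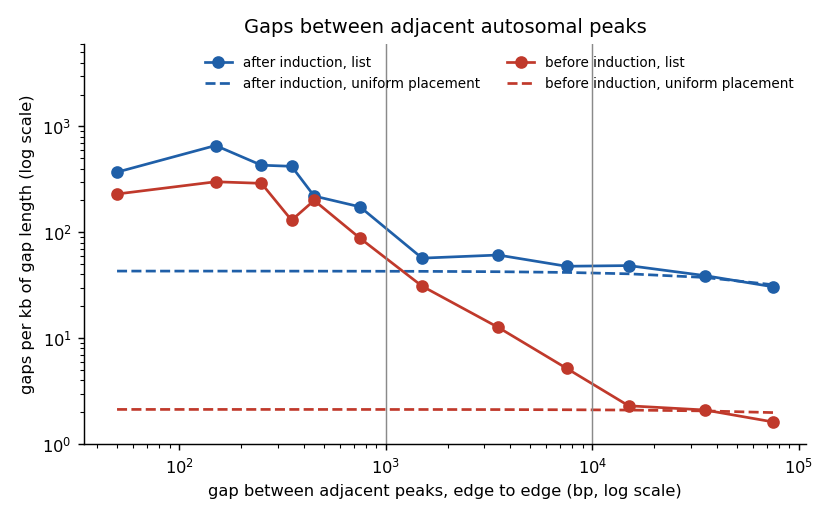
Number of gaps between adjacent autosomal peaks per kb of gap length (vertical axis, log scale) against the length of the gap in bp (horizontal axis, log scale), after and before NME2 induction, with uniform placement as dashed lines and grey lines at 1000 and 10000 bp. After induction the list rose to 660 gaps per kb between 100 and 200 bp, against 43.0 per kb under uniform placement, and ran close above the uniform line from 1000 to 50000 bp.

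The clusters were therefore divided by the length of their gaps, a division made after these values were seen. In 235 clusters (34.4%) every gap was at most 1000 bp, in 420 (61.4%) every gap was longer, and 29 held both kinds. Clusters of short gaps had a median span of 689 bp, and peaks covered 43.7% of the span in the median cluster. Clusters of longer gaps had a median span of 5644.5 bp, of which peaks covered 4.04%. Counted by the nearest neighbour, 561 members had a peak within 1000 bp and 899 had their nearest peak between 1000 and 10000 bp away.

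Centre to centre, adjacent peaks of a cluster lay 115 to 10427.5 bp apart, with a median of 2644 bp and quartiles of 587 and 5927.5 bp. For the 297 pairs with a gap of at most 1000 bp the median was 479 bp, with quartiles of 358.5 and 676 bp. The commonest distance was 400 to 500 bp (63 pairs), followed by 300 to 400 bp (55 pairs) and 200 to 300 bp (41 pairs). Together 159 of the 297 pairs (53.5%) had centres 200 to 500 bp apart, and only 6 were closer than 200 bp. For comparison, the labels give a gel fraction of 150 to 350 bases for the sequenced fragments and an average of 500 bp for the sheared chromatin, while the study's methods give a shorter sheared length. Whether neighbouring peaks at this spacing are separate bound sites or parts of 1 enriched stretch was not tested.

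**Figure D2:**
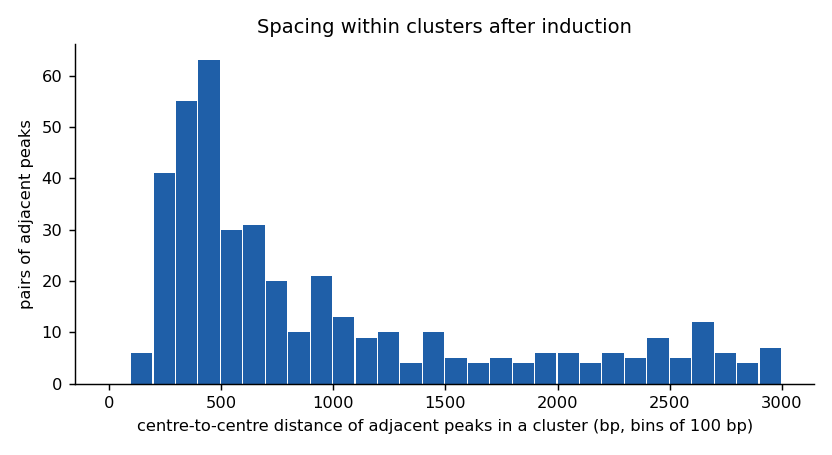
Number of pairs of adjacent peaks in clusters after induction (vertical axis) against their centre-to-centre distance in bins of 100 bp (horizontal axis, drawn to 3000 bp). The bins from 200 to 500 bp hold 41, 55 and 63 pairs, and the numbers fall to between 4 and 13 per bin from 1000 to 1500 bp.

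The tightest neighbours were nearly touching. On chromosome 10 a peak at chr10:80756153-80756568 and a peak at chr10:80756571-80756709 were 2 bp apart and had widths of 416 and 139 bp. On chromosome 16 the peaks chr16:2826996-2827502 and chr16:2827506-2827876 were 3 bp apart, with widths of 507 and 371 bp. In all, 37 gaps were at most 100 bp long.

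The clusters with the most peaks differed in form. The only cluster of 6 peaks lay on chromosome 4 at chr4:8935592-8973583 and was the longest of all, with 37992 bp. Its peaks were 29, 78, 204, 29, 29 and 29 bp wide, so that they covered 1.05% of the span. The distances from the start of 1 peak to the start of the next were 4658, 4698, 9517, 9498 and 9592 bp. The later 3 steps were thus close to each other, and about as long as the first pair of steps together. None of these peaks was found before induction. The sequence of hg18 was not used here, so whether the stretch holds repeated units was not examined.

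The 3 clusters of 5 peaks were compact. At chr13:30314602-30317204 the peaks were 400, 311, 156, 264 and 176 bp wide, with gaps of 2, 249, 722 and 323 bp, and peaks covered 50.2% of the 2603 bp. At chr12:131206135-131209110 the widths were 215, 297, 762, 137 and 122 bp, and only the last gap, of 1087 bp, exceeded 1000 bp. At chr2:240499658-240504485 the widths were 288, 551, 198, 396 and 89 bp over 4828 bp. Peaks thus filled about as much of the span on chromosome 12 (51.5%) as on chromosome 13, and less on chromosome 2 (31.5%), where the first peak lay 2209 bp from the rest.

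Of the 13 clusters of 4 peaks, the shortest was chr14:65353852-65354952, where peaks of 198, 327, 54 and 89 bp lay within 1101 bp. The next were chr20:23587151-23588938 (117, 29, 28 and 28 bp), chr3:128355821-128357659 (93, 402, 168 and 28 bp), chr17:7019106-7020945 (28, 314, 404 and 453 bp) and chr10:82405362-82407761 (222, 98, 373 and 29 bp). A cluster on chromosome 1, chr1:7475251-7483147, held peaks of 512, 326, 371 and 29 bp. Of the 17 clusters of at least 4 peaks, 13 held a peak of at most 29 bp, 12 held a peak wider than 250 bp and 8 held both. The shares over all autosomal peaks would give 15.3 and 4.38 of 17 clusters with a peak of the first and of the second kind, so that 13 was below and 12 above the value from the whole list. They were spread over 12 chromosomes. A gap of at most 1000 bp was present in 14 of the 17.

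**Figure D3:**
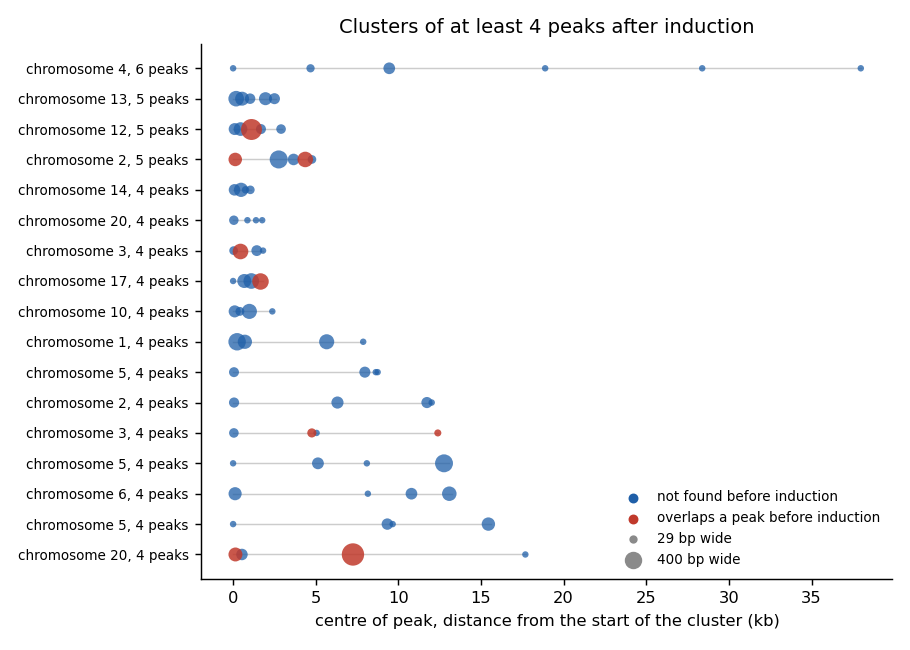
The 17 clusters of at least 4 peaks after induction, 1 per row, with the centre of each peak at its distance from the start of its cluster in kb. The area of a symbol grows with peak width, and red marks a peak that overlaps a peak before induction; the cluster of 6 on chromosome 4 is the longest, and the 3 clusters of 5 are shorter than 5 kb.

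Closely spaced peaks were wider than isolated peaks, and this was carried by the peaks with a neighbour within 1000 bp. The median width was 102 bp for the closely spaced peaks (quartiles 29 and 205 bp) and 89 bp for the isolated peaks (29 and 199 bp). The medians of closely spaced peaks were the larger in 15 of the 22 autosomes. With a neighbour within 1000 bp the median was 138 bp (quartiles 29 and 254 bp), and with the nearest neighbour 1000 to 10000 bp away it was 90 bp (29 and 199 bp). Peaks of the second kind thus had nearly the median width of isolated peaks.

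The narrowest and the broadest peaks show the same contrast. A width of at most 29 bp is far below the gel fraction of 150 to 350 bases, so it is not a fragment length. Such a width was seen in 42.4% of all autosomal peaks and in 532 closely spaced peaks (36.4%). Among isolated peaks it was 43.3%, and closely spaced minus isolated gave -6.86 percentage points (Newcombe 95% interval -9.49 to -4.17). It was lower in 19 of the 22 autosomes. Peaks wider than 250 bp, a width chosen after the data were seen, were 6.72% of all autosomal peaks but 14.3% of the closely spaced ones. With a neighbour within 1000 bp they were 25.5% (143 of 561 peaks), against 5.55% of isolated peaks, a difference of 19.9 percentage points (16.5 to 23.7). With the nearest neighbour farther than 1000 bp they were 7.34%, a difference from isolated peaks of 1.79 points (0.188 to 3.74). This small excess was not particular to the members. Isolated peaks with the nearest neighbour 10000 to 20000 bp away had 8%, which was 2.45 points above all isolated peaks (0.761 to 4.49). Between the closely spaced peaks with short and with longer gaps the difference was 18.1 points (14.2 to 22.2).

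Width rose as the gap became shorter. Members with a neighbour within 100 bp had a median width of 285 bp, and 41 of these 72 peaks (56.9%) were wider than 250 bp. At 100 to 200 bp the median was 189 bp, at 200 to 500 bp it was 110 bp and at 500 to 1000 bp it was 96 bp. From 1000 bp to beyond 100000 bp the medians of the distance classes stayed between 82 and 98 bp. A gap and a width are set by the same called boundaries, so these are not independent measures of 1 site.

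Narrow and wide peaks were paired about as often as their own frequencies give. Among the 297 pairs within 1000 bp both peaks were at most 29 bp wide in 20 pairs, 1 of them in 123 and neither in 154. These are 6.73%, 41.4% and 51.9% of the pairs, and the width classes combined independently would give 7.53%, 39.8% and 52.6%. Across these pairs the correlation of log2 widths was 0.03, given as a description, since pairs in 1 cluster share peaks.

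**Figure D4:**
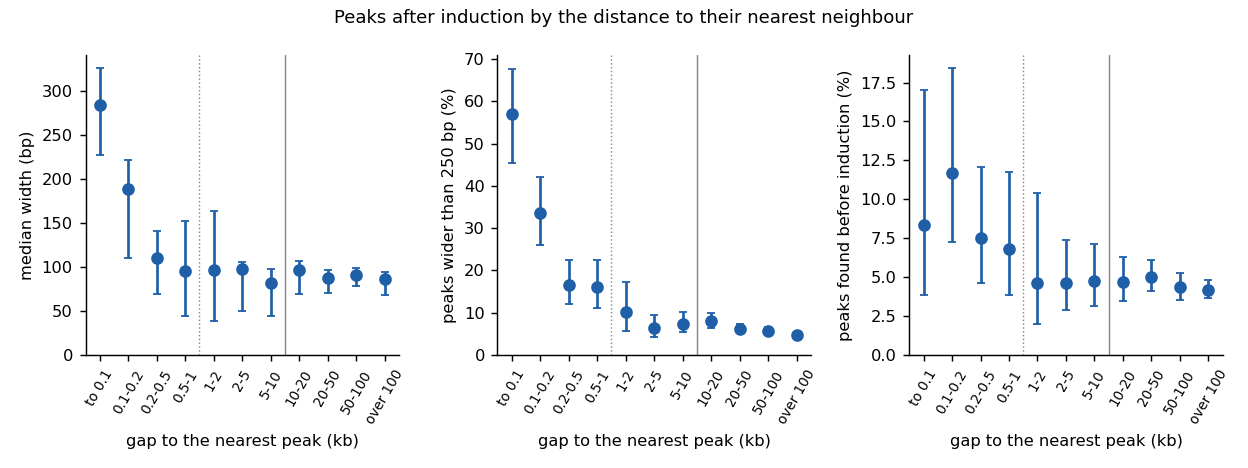
Median width, share of peaks wider than 250 bp and share of peaks found before induction (vertical axes) for autosomal peaks after induction, by the gap to their nearest neighbour in kb (horizontal axis), with 95% intervals (binomial for the median, Wilson for shares). The dotted line marks 1 kb and the solid line 10 kb; width falls from a median of 285 bp at gaps of up to 0.1 kb to 96 bp at 0.5 to 1 kb and is level beyond.

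The list before induction was not used to choose the members and so gives an outside measure of them. A peak was counted as found before where it overlapped a peak before induction by at least 1 bp. Of the 10901 autosomal peaks after induction, 508 (4.66%) were found before. Of the closely spaced peaks 89 were (6.10%, Wilson interval 4.98 to 7.44%), against 419 of the isolated peaks (4.44%), a difference of 1.66 percentage points (Newcombe interval 0.460 to 3.06). It was 0.0720 points (-0.485 to 0.853) when a reciprocal overlap of 50% was asked for, 1.07 points (-0.161 to 2.57) without the 5 Mb next to the first and last peak of each chromosome and 1.26 points (-0.301 to 3.30) with 1 peak per cluster, so that each of these intervals included 0. It was larger, 6.84 points (5.14 to 8.72), when a gap of at most 1000 bp to a peak before induction counted as found. At that distance 1 peak before induction can count for several members of a cluster. The larger value is therefore not independent of the spacing that chose the members. With a neighbour within 1000 bp the share was 8.38% (47 of 561), which was 3.94 points above isolated peaks (1.87 to 6.56) and 3.71 points above members with longer gaps (1.14 to 6.56). Without those 5 Mb the difference from isolated peaks was 1.94 points, and its interval (-0.0820 to 4.78) included 0. Members with the nearest neighbour at 1000 to 10000 bp had a share of 4.67%, a difference from isolated peaks of 0.234 points (-1.04 to 1.87). The share in members within 1000 bp was above that of isolated peaks in 17 of the 22 autosomes.

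Members were wider, and a wide peak offers more bases to overlap, so the comparison was repeated within width classes. Among peaks at most 29 bp wide, 5.10% of those with a neighbour within 1000 bp and 4.92% of the isolated ones were found before. Among peaks of 30 to 250 bp it was 21 of 261 (8.05%) and 164 of 4829 isolated peaks, a difference of 4.65 points (1.87 to 8.62). Among peaks wider than 250 bp they were 12.6% and 10.3%, a difference of 2.28 points whose interval (-3.05 to 9.12) included 0. The interval of the difference thus left out 0 in the middle class alone, and the classes were not tested against each other.

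The place of a peak in the list also went with being found before. The autosomal peaks were divided by their running number, whose meaning is not given in the sources used here, into 10 parts of nearly equal size. Of the first of these parts 26.8% were found before, and of the last 1.01%. Members within 1000 bp of a neighbour made up 5.60% of the first, 6.97% of the fourth and 3.21% of the last. In the first 12 of 61 such members were found before (19.7%), against 27.3% of the isolated peaks, a difference of -7.64 points with an interval of -16.2 to 4.32. In the other parts 35 of 500 such members were found before, against 1.91% of isolated peaks, a difference of 5.09 points (3.14 to 7.69). The interval thus left out 0 in the later parts and included it in the first, and the difference between them was not tested.

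A peak found before was present in 80 of the 684 clusters (11.7%, interval 9.50 to 14.3%), 1 such peak in 72 clusters and 2 or 3 in 8. The share over all autosomal peaks, 4.66%, applied to each member independently gives 9.66% of clusters, which is inside that interval. It gives 1.33 of the 614 pairs with both peaks found, and there was 1. All peaks were found before in 2 clusters. One was a cluster of 3 on chromosome 3, chr3:199384193-199385437, with widths of 368, 29 and 212 bp. The other was a pair at the start of chromosome 18, chr18:1-651, with widths of 408 and 105 bp. The others with 2 found peaks and the shortest spans were chr8:139886528-139887792, chr20:60237510-60239043 and chr11:131990857-131994027, each of 3 peaks. Among the 17 clusters of at least 4 peaks, 6 had a peak found before, where the share over all peaks gives 3.14, and 9 of their 73 peaks were found (12.3%). In a further 18 clusters a peak before induction lay in the span but overlapped no member.

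Spacing in the list before induction was compared for partners, that is peaks before induction under a peak after induction that overlapped no other one. Of the 84 partners of closely spaced peaks, 22 had a neighbour within 10000 bp in their own list. However, 15 of these 22 lay in clusters with 2 or 3 members found before, where the members' own positions put the partners within that distance, so they are no measure of spacing before induction. Among the other 69 partners, whose peak was the only one of its cluster found before, 7 were closely spaced (10.1%), against 13 of 417 partners of isolated peaks (3.12%). The difference was 7.03 percentage points (Newcombe interval 1.46 to 16.5) and rests on 7 peaks. This restriction was chosen after the data were seen.

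In the list before induction 325 of 2413 autosomal peaks (13.5%, interval 12.2 to 14.9%) were closely spaced by the same rule, nearly the share after induction. With fewer peaks uniform placement gives 1.75%, so the ratio to uniform was 7.71 before and 1.76 after induction. In the first 50% of the list after induction by running number the ratio was 2.19. No list of matched size was drawn, so the ratios before and after are not like measures. The clusters before induction were fewer and larger. There were 71, of which 47 were pairs, and 6 clusters of at least 10 peaks held 152 of the 325 peaks, the largest with 42 peaks. After induction no cluster exceeded 6. Without the 10 densest bins of 1 Mb the share before induction was 6.35% and its ratio to uniform 4.03. The same removal after induction left 13.1% and a ratio of 1.75.

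Closely spaced peaks occurred on every autosome, at 10.0 to 23.3% of its peaks. The highest shares were those of chromosome 20 (23.3%, 65 of 279 peaks), chromosome 19 (19.6%, 45 of 230) and chromosome 18 (17.9%, 64 of 357). The lowest were those of chromosome 13 (10.0%, 38 of 380), chromosome 5 (10.1%, 72 of 712) and chromosome 21 (10.6%, 19 of 179). The ratio to uniform placement was above 1 on all 22 autosomes, from 1.07 on chromosome 21 to 2.81 on chromosome 19. On chromosome 21 (6.90 to 16.0%, uniform value 9.94%) and chromosome 13 (7.37 to 13.4%, uniform value 7.55%) the counting interval of the share included the uniform value. These intervals are a description only. Position chose the members, and the intervals count peaks singly although closely spaced peaks come at least in pairs. They therefore do not sort these chromosomes from the others. The number of peaks per Mb did not order the chromosomes in the same way: across the 22 autosomes r with the closely spaced share was 0.118 and rho was 0.106, as a description. Chromosome 21 had the highest density, 5.32 peaks per Mb, and a low share. The share of peaks with a neighbour within 1000 bp was 3.93 to 9.72 times its uniform value, lowest on chromosome 4 and highest on chromosome 9.

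**Figure D5:**
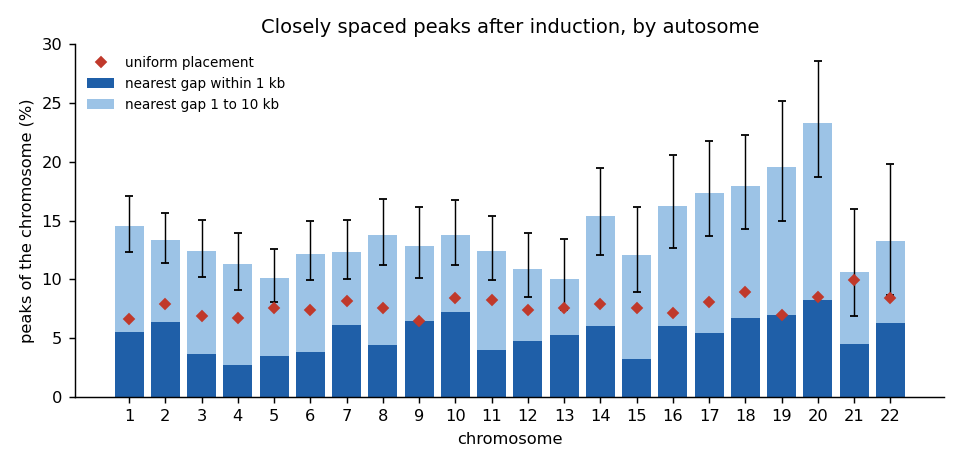
Share of the autosomal peaks after induction that were closely spaced (vertical axis, %), by chromosome, split into peaks with the nearest neighbour within 1 kb (dark) and at 1 to 10 kb (light), with the Wilson 95% interval of the sum. Red diamonds give uniform placement; all bars end above their diamond, chromosome 20 reaches 23.3%, and chromosome 21 is nearest to its diamond.

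A larger share of the closely spaced than of the isolated peaks lay near the first or last peak of a chromosome, although most of both lay elsewhere. Within 5 Mb of the first or last peak of either list, here called the end zones, lay 315 of the 1460 members (21.6%) and 904 of the isolated peaks (9.58%). For members with a neighbour within 1000 bp the share was 29.9%, and for those with longer gaps 16.4%. The closely spaced share in these zones was above the isolated one on 19 of the 22 autosomes. The exceptions were chromosomes 17, 19 and 22. On chromosomes 13, 14, 15, 21 and 22 the first peak lay 9.82 to 19.1 Mb from the first base, so that these zones do not begin at a chromosome end. Without these 5 chromosomes, left out after the data were seen, the shares were 20.6% of the members and 8.87% of the isolated peaks. Position chose the members, so this is a description, and the end zones were also denser, with 5.54 peaks per Mb against 3.96 elsewhere. Set against the uniform value of each zone's own density, the share with a neighbour within 1000 bp was 12.5 times that value in the end zones and 5.15 times elsewhere. Beside the longest stretch without peaks on a chromosome, within 1 Mb, lay 0.685% of the members and 1.51% of the isolated peaks, which is 10 and 143 peaks.

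The end zones differed in the other measures as well. In them 15.9% of isolated peaks were wider than 250 bp, and elsewhere 4.45%. Of the members with a neighbour within 1000 bp, 33.3% were wider than 250 bp in the end zones and 22.1% elsewhere. In the end zones 13.7% of such members and 6.97% of isolated peaks were found before. Outside them the shares were 6.11% and 4.17%. The wider peaks among members were therefore present in both zones, while for the share found before the interval left out 0 in the end zones (6.72 points, 1.96 to 12.9) and not elsewhere. Whether the difference itself changed between the zones was not tested.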

How the data were processed

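NME2 ChIP-seq peaks of A549 cells were analysed as deposited, and the lists are longer than the numbers of peaks given in the study's text, for a reason not given in the sources used here. The authors aligned clipped reads with MAQ to hg18, called peaks over IgG with CisGenome, refined the boundaries and removed single-strand peaks. Each deposited list has 4 columns (running number and position), and how the replicate libraries were combined is not given in the sources used here. Starts were read as counting from 0 and are printed counting from 1. Which condition a list belongs to was taken from the name the authors gave it.

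Peaks were chained with python 3.11.15, pandas 2.3.3 and numpy 2.4.6, and clusters and overlaps were checked with bedtools 2.31.1. Uniform values were computed in closed form from the number of peaks and the free length between the first and last peak of each chromosome, and the code was tested on simulated data. Shares have Wilson and differences of shares Newcombe 95% intervals (statsmodels 0.14.6). For a difference in median width the interval is the binomial one of the members' median, less the isolated median taken as fixed. All these intervals treat peaks as units, and no test over replicates could be made.

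The members, lists and limits were chosen with earlier results of these data known. The division at 1000 bp, the width of 250 bp and the end zones were chosen after the values were seen. Clusters were named by rule: the 10 with the most peaks, the 5 shortest of at least 4 peaks, those with the most peaks found before, and the 3 autosomes at each end of the range. The nearly touching pairs were named outside it. Alternatives are given in the closing section. The reference at hand has another build than hg18, so genes and sequences at the peaks were not used here.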

Additional observations from a re-analysis of the deposited data

Results flagged for a closer look

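Chromosomes X and Y are outside the members' rule. By the same distance 76 of 558 peaks after induction on chromosome X were closely spaced (13.6%, Wilson interval 11.0 to 16.7%, uniform value 6.92%), and 6 of 86 on chromosome Y (6.98%, interval 3.24 to 14.4%, uniform value 2.85%). They are listed because no comparison of autosomes uses them. Of the 76 on chromosome X 14 had a neighbour within 1000 bp, and of the 6 on chromosome Y none had.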

How the results depend on the processing

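No paired analysis was possible because the lists hold no values of single libraries, and none could be omitted in turn. The 7 results were recomputed under 81 alternatives, 9 of them chosen after seeing the data. Of the 81, 42 stayed within the interval, within 1.5 times the count or on the same side of 0, and 34 moved. A further 5 lost an interval that left out 0, and 0 reversed. Among those that moved, the difference in median width for nearest gaps of 1 to 10 kb also came to include 0 (-26 to 10 bp). Linking distances of 1000, 2000, 5000, 20000 and 50000 bp, which admit fewer or more neighbours by construction, gave closely spaced shares of 5.15, 6.14, 9.32, 21.4 and 39.0% and ratios to uniform of 6.54, 3.92, 2.41, 1.47 and 1.20. The number of clusters was 264, 315, 1074 and 1815 at 1000, 2000, 20000 and 50000 bp. Counting peaks with a gap of at most 500 bp as 1 site gave a share of 10.2% and a ratio of 1.37. Without peaks at most 29 bp wide these were 10.0% and 2.24, with 296 clusters, and in the first 50% of the list by running number 8.53% and 2.19, with 218 clusters; both hold fewer peaks. Without peaks found before induction the share was 12.5%, and without the 5 Mb next to the first and last peak of each chromosome it was 11.8% with a ratio of 1.62. With the expectation taken from the density in bins of 1 Mb and 5 Mb the ratio was 1.56 and 1.64. With the longest stretch without peaks on each chromosome left out of the expectation it was 1.69. Leaving out each chromosome gave shares of 13.1 to 13.6% and ratios of 1.73 to 1.79.

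The difference in median width, 13 bp, was 49 bp for peaks linked within 1000 bp, and also when these were set against the isolated peaks of the 10000 bp rule. It was 1 bp for nearest gaps of 1 to 10 kb. Its interval of -26 to 10 bp included 0, and it leaves out the error of the isolated median. In that last class the difference in narrow peaks was -1.59 points (interval -4.92 to 1.81) and that in peaks found before 0.234 points. Over all members the difference in peaks found before was 1.26 points with 1 peak per cluster and 0.0720 with a reciprocal overlap of 50%. It was 1.07 points without the 5 Mb next to the first and last peaks, and each of these intervals included 0. When a gap of at most 1000 bp counted as found it was 6.84 points, but 1 peak before induction can then count for several members. Leaving out each chromosome kept the difference in peaks found before between 1.32 and 2.02. The share closely spaced before induction, 13.5%, was 9.32, 15.1 and 20.02% at 1000, 20000 and 50000 bp and 6.35% without the 10 densest bins. The lists carry no scores, so the depth behind a peak limits all of these in a way that could not be measured.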
